A study of Arabidopsis thaliana with 10 samples.

Results

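The sites described here are the nuclear regions that were called as LIMYB peaks in 2 Arabidopsis lines at the same place. A peak belonged to them when it lay on chromosomes 1 to 5 and overlapped a peak of the other line, L1 or L4, by at least 1 bp. By this rule 4319 of 9604 nuclear L1 peaks (44.97%, 95% Wilson interval 43.98 to 45.97) and 4316 of 8952 nuclear L4 peaks (48.2%, 47.2 to 49.2) were shared, 8635 peaks of 18556 in all. They formed 4324 overlapping pairs and 4311 sites once touching peaks were joined. The remaining 5285 L1 peaks and 4636 L4 peaks, called not shared below, serve as the comparison. Because the overlap of the lists chose the members, these counts are a description and carry no test. The intervals cover counting error only, and neighbouring peaks are not independent.

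All samples were Arabidopsis thaliana seedlings carrying a YFP-LIMYB transgene, with the genotype given as a LIMYB overexpression line, germinated for up to 12 days on agar plates with MS salts and sucrose. Chromatin from nuclei of formaldehyde-crosslinked seedlings was precipitated with an anti-GFP antibody and sequenced (ChIP-seq). L1 comprised 2 samples, L4 comprised 4 and L3 comprised 4. The 4 samples of a line carry only replicate numbers 1 and 2, each listed under 2 title suffixes whose meaning is not given. L3 had 12 peaks, none of them nuclear, and enters no comparison. The promoter that drives the transgene is not stated, nor whether L1 and L4 are independent insertions, and the sample titles hold a further name, LIMYB-32, without explanation. No input DNA and no control immunoprecipitation is among the samples, so a region that precipitates in any seedling chromatin cannot be told apart here from a region held by LIMYB. Each line has 1 peak list and no replicate columns, so no value below has a replicate error and no difference was tested.

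LIMYB is a MYB-domain protein of an antiviral pathway in plants. The receptor kinase NIK1, once active, leads to phosphorylation of the ribosomal protein RPL10, which moves to the nucleus and there meets LIMYB. LIMYB is known as a repressor of genes for ribosomal proteins and other parts of the translational machinery, and the series asks about the photosynthetic apparatus as well. A ChIP-seq peak marks where tagged protein and DNA were recovered together and does not say whether a gene's expression changed.

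The peaks of a pair lay almost on top of each other. The overlap had a median of 214 bp (quartiles 200 and 255, range 2 to 1594), which was 94.3% of the L1 peak and 91.5% of the L4 peak at the median. Summits, the points of highest signal, were a median of 23 bp apart, with quartiles of 8 and 51 bp. In 3228 of 4324 pairs (74.7%) they were within 50 bp and in 3944 (91.2%) within 100 bp, while the widest separation was 1202 bp. In 2074 pairs (48.0%) 1 peak lay wholly inside the other, and in 25 pairs the coordinates were identical. The 2 peaks of a pair together spanned a median of 292.5 bp. Nearly all peaks had a single partner: 5 L1 peaks had 2 L4 partners and 8 L4 peaks had 2 L1 partners.

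The minimum overlap of 1 bp was seldom close to deciding membership. The smallest overlap, 2 bp, was at AT5G19580 with fold enrichments of 7.54 in L1 and 7.78 in L4. The next were 7 bp upstream of NRAMP4, a vacuolar metal transporter gene (7.83 and 10.9), and 8 bp at AT5G34581 (5.72 and 4.11). Just outside the rule were gaps of 3 bp at AT5G26180 (7.83 in L1, 16.92 in L4), 8 bp at AT1G49740 (6.7 and 7.43) and 19 bp at YSL6, a metal-chelate transporter gene (9.4 and 11.68). Of the peaks that were not shared, 13 L1 peaks and 15 L4 peaks had a gap of 100 bp or less to a peak of the other list. Their median gap to it was 4723 bp in L1 and 4260 bp in L4.

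Shared peaks were higher and wider than the other peaks of the same list. The fold enrichment, the pileup and the q-value are the authors' own values for each peak, and they are used here only to describe and rank peaks within a list. In L1 the median fold was 9.92 for shared peaks (quartiles 7.83 and 13.05) and 8.16 for peaks not shared (7.21 and 9.43). In L4 it was 12.45 for shared peaks (10 and 17.1) and 10.9 for peaks not shared. The groups overlapped over most of their range: the lowest shared fold was 1.74 in L1 and 1.68 in L4, and the highest fold of a peak not shared was 27.15 in L1 and 39.33 in L4. The median pileup, in overlapping fragments at the summit, was 23 for shared and 17 for not shared L1 peaks, and 20 and 16 in L4. The median −log10 q was 13.22 against 8.8 in L1, and 13.41 against 9.92 in L4.

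Width followed the same order, with the reservation that a wider peak has more room to overlap another. The median width was 247 bp for shared and 212 bp for not shared peaks in L1, and 255 bp and 223 bp in L4. Peaks of exactly 200 bp, the smallest width in either list, made up 8.84% of shared against 24.7% of not shared L1 peaks, and 10.2% against 21.3% in L4. Seen the other way, 27.3% of the L1 peaks 200 to 210 bp wide were shared, and 69.4% of those over 300 bp. In L4 these shares were 34.3% and 62.4%.

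The share of peaks that were shared did not grow evenly with fold. With each list cut into 5 equal groups from lowest to highest fold, it was 35.7%, 28.995%, 36.3%, 50.3% and 73.6% in L1. In L4 it was 39.6%, 37.99%, 43.2%, 54.6% and 65.6%. The lowest group thus held more shared peaks than the group above it in L1, and by a smaller margin in L4. Among L1 peaks both over 300 bp wide and in the highest group by fold, 489 of 564 (86.7%) were shared. In L4 it was 622 of 878 (70.8%).

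**Figure D1:**
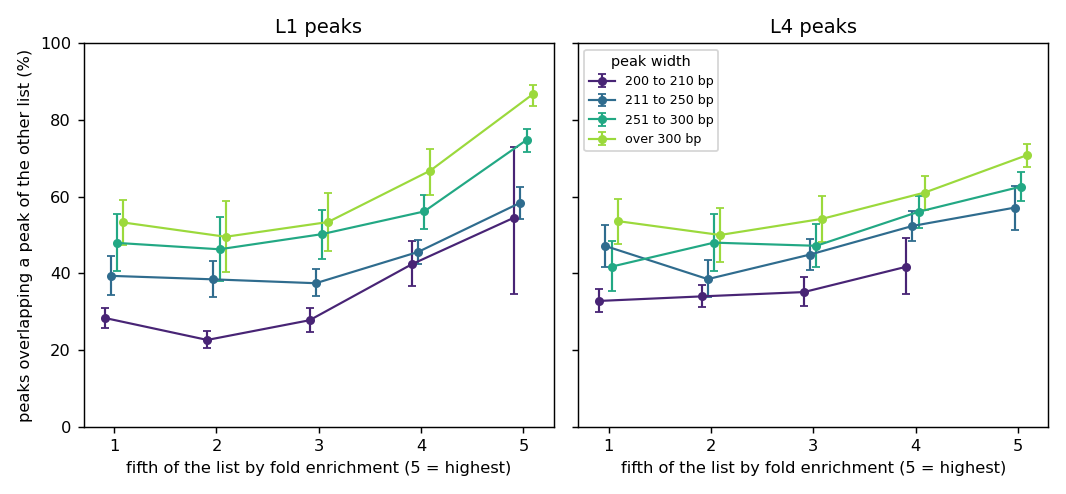
Percent of nuclear peaks shared with the other list (vertical axis), by 5 equal groups of fold enrichment (horizontal axis) and peak width (colours), for L1 (left) and L4 (right); bars are 95% Wilson intervals and classes with fewer than 20 peaks are left out. Wide peaks lie above narrow ones in nearly all groups by fold, and the widest, highest peaks reach 86.7% in L1 and 70.8% in L4.

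A high fold in L1 went with a high fold in L4 only loosely. Across the 4324 pairs Spearman's rho was 0.48, given as a description because pairs are not independent and share the local background of the genome. Of the shared peaks in the top 10% of their own list by fold, 805 pairs qualified in L1, 631 in L4 and 319 in both, which is 39.6% of the L1 pairs and 50.6% of the L4 pairs. In 1926 pairs (44.5%) both peaks stood in the upper 50% of their lists, and in 940 pairs (21.7%) both stood in the lower 50%. Pairs at opposite ends also occurred: 111 were in the top 10% in L1 and the lower 50% in L4, and 77 the reverse. The L4 fold was the higher number in 3159 pairs (73.1%). Folds ran higher in L4 over its whole list, with a median of 8.72 in L1 and 11.65 in L4, so that figure is not read as stronger binding in L4.

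**Figure D2:**
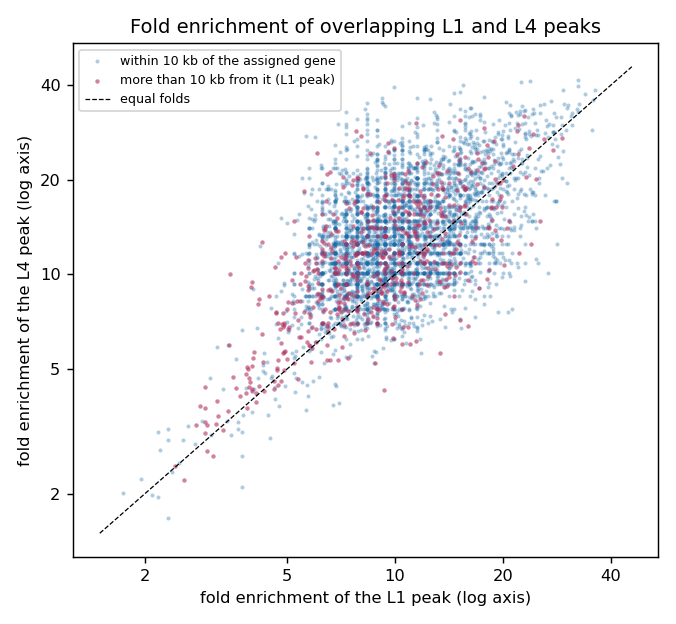
Fold enrichment of the L1 peak (horizontal, log axis) against that of the L4 peak (vertical, log axis) for the 4324 overlapping pairs; red points lie more than 10 kb from the assigned gene and the dashed line marks equal folds. Most points lie above the line (3159 pairs), and the cloud is broad (Spearman's rho 0.48).

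The sites with the highest folds in both lists were scattered over functions and positions. By the lower of the 2 folds, the first was a site 5839 bp from AT5G37890, listed in RefSeq as SINA like 7, on its downstream side (chromosome 5, 15084069 to 15084447 in L1; the genome build of the lists is not given in the sources used here). Its folds were 36.21 in L1 and 38.52 in L4, with pileups of 147 and 104. Next came a site 1158 bp upstream of AT5G03880 (35.71 in L1, 35.98 in L4) and a site 3710 bp upstream of AT5G67640 (33.94 and 37.5). The site upstream of CYCD4;1, a D-type cyclin gene that promotes cell division, had the highest pileups of the 10, 220 in L1 and 213 in L4, with folds of 32.54 and 34.8 and summits 2 bp apart. The 3′ end of AT1G74730 carried 32.48 in L1 and 41.6 in L4, where no shared peak had a higher fold.

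The other 5 sites of this rank included genes of development, cell wall sensing and ribosome assembly. ASL9, a LOB-domain gene, had an L1 fold of 32.3 and an L4 fold of 32.76 at a site 1153 bp upstream. PERK8, a proline-rich receptor-like kinase gene, had 32.29 and 39.76 inside the gene. NMD3 encodes an adaptor that exports the large ribosomal subunit from the nucleus; it had 32.12 and 33.47 across its 3′ end (chromosome 2, 1164739 to 1165026 in L1). Sites downstream of AT3G28850 (31.25 and 32.69) and upstream of AT3G05155 (31.03 and 31.82) completed the 10. None of the 10 was in the promoter window used below, and 3 of them touched the assigned gene.

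In position relative to the gene, shared and not shared peaks differed at the 3′ end, inside genes and far from genes. The downstream class, and in L4 the upstream class, differed over all distances but had overlapping intervals within 1000 bp of the gene. The authors' annotation assigns a gene to each peak and gives the class of position to that gene. The assigned gene is not always the nearest. An L1 peak 1573 bp upstream of Plsp2A had its summit 22 bp from that of an L4 peak across the 3′ end of bZIP52. A peak over 1 gene can therefore be classed by another, and distances below are to the assigned gene. Upstream peaks made up 42.4% of shared and 42.4% of not shared peaks in L1, and 42.4% and 38.8% in L4. Peaks inside a gene made up 23.5% of shared (22.2 to 24.8) against 28.1% of not shared peaks (26.9 to 29.3) in L1, and 23.7% (22.5 to 25.04) against 31.6% (30.3 to 33.0) in L4. Peaks across the 3′ end showed the opposite order, 8.10% (7.33 to 8.96) against 5.45% (4.87 to 6.09) in L1 and 8.202% (7.42 to 9.06) against 6.06% (5.41 to 6.79) in L4. Peaks across the 5′ end made up 5.16% against 5.66% in L1 and 5.03% against 6.06% in L4, with overlapping intervals in both. Downstream peaks were 20.7% (19.6 to 22.0) against 18.4% (17.4 to 19.5) in L1 and 20.5% (19.3 to 21.8) against 17.5% (16.4 to 18.6) in L4. Within 1000 bp of the gene, downstream peaks were 7.52% against 7.10% in L1 and 7.34% against 7.66% in L4. Upstream peaks in that range were 18.6% against 19.5% in L1 and 18.8% against 19.0% in L4. The upstream and downstream classes also hold the peaks more than 10000 bp away, 14.2% against 10.2% in L1 and 14.2% against 8.61% in L4.

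**Figure D3:**
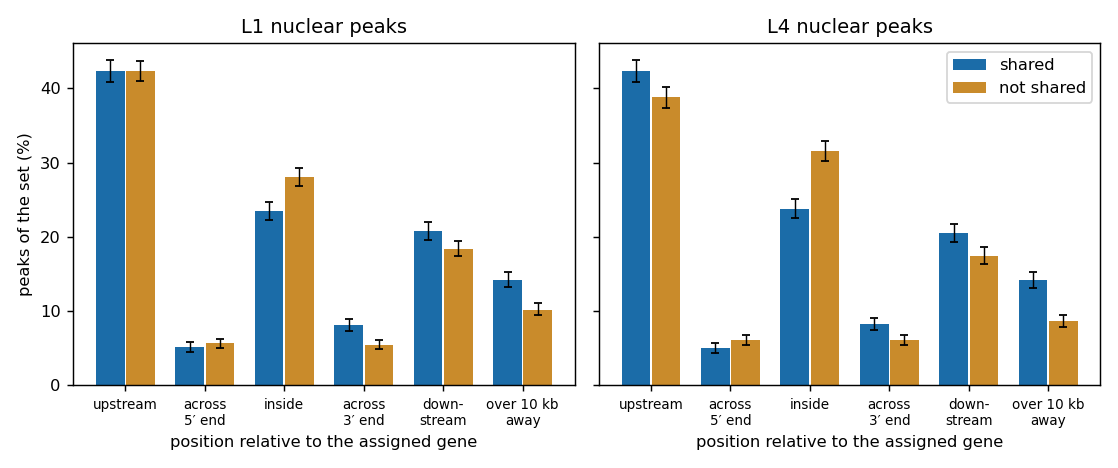
Percent of shared (blue) and not shared (orange) nuclear peaks in each position class, for L1 (left) and L4 (right), with 95% Wilson intervals; peaks over 10 kb away are also counted as upstream or downstream. Shared peaks stand lower inside genes (23.5% against 28.1% in L1) and higher across 3′ ends (8.10% against 5.45%) and over 10 kb away (14.2% against 10.2%).

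Leaving aside the peaks that span a whole gene (5 of 9 shared in L1, 6 of 7 in L4), the share of peaks found in both lists was highest across 3′ ends and far from genes. Of peaks across a 3′ end, 350 of 638 in L1 (54.9%) and 354 of 635 in L4 (55.7%) were shared. Of those more than 10000 bp from the assigned gene, 614 of 1154 in L1 (53.2%) and 612 of 1011 in L4 (60.5%) were shared. Peaks inside genes were lowest, with 40.6% in L1 and 41.2% in L4, beside 44.97% and 48.2% over all nuclear peaks. Among these larger classes the 3′ end came first in L1 and the distant class in L4.

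Summits placed the contrast within about 100 bp of the 3′ end. At most 100 bp from the 3′ end of the assigned gene lay 304 shared summits of L1 (7.04%) and 297 of L4 (6.88%). Of summits not shared, 266 in L1 (5.03%) and 231 in L4 (4.98%) did. Just upstream of genes the sets were alike in level: more than 100 and up to 300 bp before the 5′ end lay 6.39% of shared and 6.34% of not shared L1 summits, and 6.21% and 6.38% in L4. In the first 400 bp after the 5′ end lay 4.61% against 5.96% in L1, and 4.56% against 6.21% in L4. Shared peaks inside genes were counted by 5 equal parts of the gene from the 5′ end. Peaks across a gene end fall in other classes, which lowers the first and last parts by definition. The parts held 15.4%, 23.4%, 29.6%, 24.0% and 7.69% of the 1014 shared L1 peaks inside genes. In L4 they held 15.2%, 23.9%, 29.9%, 23.5% and 7.51% of 1025. Peaks not shared had a like profile, with 16.3%, 26.4%, 28.5%, 19.8% and 9.04% of 1483 in L1.

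**Figure D4:**
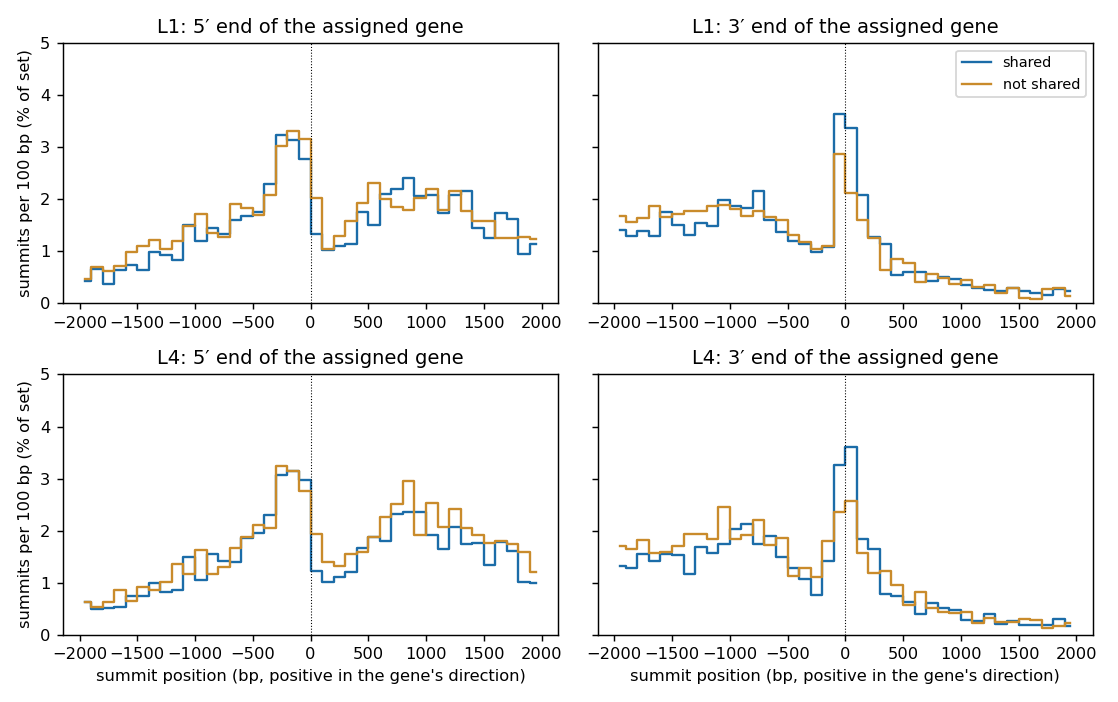
Percent of summits per 100 bp (vertical) against the distance from the 5′ end (left) and the 3′ end (right) of the assigned gene in bp, for L1 (above) and L4 (below), shared in blue and not shared in orange. Both sets peak just upstream of the 5′ end, and shared summits rise above the others at the 3′ end, where 7.04% against 5.03% lie within 100 bp in L1.

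The 2 peaks of a pair nearly always received the same annotation. Both were assigned to the same gene in 4283 pairs (99.1%) and to the same class in 4172 (96.5%). The strongest of the 41 pairs that named different genes lay between AT5G53330 in L1 (19.84) and AT5G53320 in L4 (20.55). Another joined Plsp2A, for a plastid signal peptidase (18.09 in L1), with bZIP52, for a transcription factor (20.56 in L4), and the third joined AT5G19730 (16.38) with AT5G19729 (17.36). In each of these the summits were at most 45 bp apart.

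Within the position classes the strongest shared sites were as follows. Across the 5′ end, PHO2, for a ubiquitin-conjugating enzyme that limits phosphate uptake, had an L1 fold of 26.47 and an L4 fold of 29.58. ATRER1C1, for a Golgi protein of retrieval to the endoplasmic reticulum, had 23.49 and 31.72, and AT2G25460 had 21.54 and 26.32. Inside genes, PERK8 was followed by NAC038, for a NAC-domain transcription factor (31.09 and 29.78), and AT3G18050 (29.14 and 29.92). These inside sites stood in the top 10% of both lists by fold.

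Across the 3′ end, AT1G74730 and NMD3 were followed by AT3G30370 (29.44 in L1, 38.66 in L4). Downstream, AT5G37890 and AT3G28850 were followed by PRB1, for a basic pathogenesis-related protein, with 30.41 and 34.67 at 4279 bp from the gene. Peaks that spanned a whole gene were rare, 5 in L1 and 6 in L4, and the genes were very short. AT3G61117 had an L1 fold of 21.03 and an L4 fold of 32.24, AT5G12450 had 17.7 and 11.84, and AT1G23650 had 11.49 and 17.93. Of these 3, only AT3G61117 was in the top 10% of both lists.

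Shared sites far from genes differed in signal from those nearer to genes. The 614 shared L1 peaks more than 10000 bp from their gene had a median fold of 9.06, a width of 266 bp and a pileup of 32, against 9.92, 244 bp and 22 for the 3705 nearer shared peaks. In L4 the 612 distant shared peaks had 11.05, 268.5 bp and 24, against 12.67, 253 bp and 19. They were thus wider and more heavily covered but of lower fold in both lists. The local background of distant shared peaks, derived as (pileup + 1) / fold − 1, had a median of 2.38 fragments against 1.13 for nearer ones in L1 and 1.099 against 0.466 in L4. The formula takes the fold to have been computed with 1 fragment added above and below the line, a setting not given in the sources used here. Distant peaks that were not shared also had lower folds than all peaks not shared, with medians of 7.105 against 8.16 in L1 and 9.15 against 10.9 in L4, and a higher derived background, 1.86 against 1.07 and 0.807 against 0.402. Folds of the shared pairs also ran more in parallel far from genes, with a rho of 0.63 over 615 distant and 0.44 over 3709 nearer pairs. The part of the higher derived background in this was not tested.

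Peaks on very high background were mostly among the shared ones. A derived background above 10 fragments occurred in 92 shared (2.13%) against 40 not shared L1 peaks (0.757%), and in 77 (1.78%) against 12 (0.259%) in L4. The widest sites all belonged to this kind. On chromosome 3, 13589958 to 13592577, the L1 peak was 2620 bp wide with a pileup of 406 and a fold of 3.84, and the L4 peak inside it was 965 bp wide with 326 and 4.2. On chromosome 4, 3952138 to 3953742, the peaks were 1605 bp in L1 and 1594 bp in L4, with pileups of 404 and 348 and folds of 3.6 and 4.34. The next 3 were 2 sites assigned to AT3G41762 on chromosome 3 and 1 to AT5G30520 on chromosome 5. These 3 had folds of 2.99 to 4.5 in L1 and 2.1 to 4.68 in L4. The folds of all 5 widest sites stood in the lowest 2% of each list. Their L1 pileups, 110 to 406, all exceeded the 49 fragments at or below which 90% of shared L1 peaks lay.

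Along the chromosomes, the bins with the highest share of shared peaks included several near the centromeres of chromosomes 2, 4 and 5. Over whole chromosomes 1 to 5 the percent of L1 peaks shared was 44.2, 47.8, 44.2, 46.3 and 43.4, and of L4 peaks 45.6, 49.0, 48.8, 51.1 and 48.0. In 238 bins of 500000 bp with at least 20 peaks in each list, the median percent shared was 43.9 in L1 and 47.0 in L4. By the lower of the L1 and L4 percents, the bin ranked highest was chromosome 4, 3500001 to 4000000, with 50 of 76 L1 peaks (65.8%) and 50 of 71 L4 peaks (70.4%). Chromosome 2, 3500001 to 4000000 (64.8% and 68.7%), and its neighbour from 3000001 to 3500000 (64.7% and 62.1%) were also near the top, as was chromosome 5, 12000001 to 12500000 (60.3% and 64.7%). The chromosome 2 bin from 3000001 to 3500000 had a median derived background of 3.66 in L1 and 7.96 in L4. Over all nuclear peaks it was 1.11 and 0.443. The part of this background in the share of that bin was not tested. The bin also differed from its neighbour in position: the distant class made up 14.1% of its peaks in L1 and 9.2% in L4. From 3500001 to 4000000 on the same chromosome the distant class made up 54.9% and 52.2%. The origin of the reads in either bin was not tested. In single lists chromosome 1, 7500001 to 8000000, reached 21 of 30 (70%) in L1, and chromosome 3, 9000001 to 9500000, reached 22 of 31 (71.0%) in L4. By the higher of the L1 and L4 percents, the bins ranked lowest were chromosome 4, 11000001 to 11500000 (28.1% in L1, 25.7% in L4), and chromosome 3, 21500001 to 22000000 (28.6% and 25%). These bins were picked for their values. They ranged widely in peak number. Chromosome 3, 21500001 to 22000000, held 28 L1 and 32 L4 peaks, and chromosome 2, 3000001 to 3500000, held 85 and 87.

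The shared sites were assigned to 3456 genes, of which 3378 were among the 27444 nuclear protein-coding genes of RefSeq (12.3%). Most of these genes, 3095, had a single site, 361 had at least 2 and 53 had at least 5. The 53 together held 482 sites. Among the genes with most, AT5G30520 had 28 sites between 26733 and 214648 bp away, AT3G32980 had 23 and AT5G32440 had 20. AT1G40104 had 17, AT3G33187 had 16 and AT4G06526 had 16, and the farthest site of AT3G33187 was 233208 bp away. Of these 6 genes AT1G40104 alone had a site within 1000 bp of it, at 75 bp.

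Near 5′ ends the number of genes was smaller. A gene was counted as having a shared promoter site when an overlapping L1 and L4 peak were both assigned to it and both touched the promoter window, taken from 1000 bp before its 5′ end to 100 bp after it. This held for 1040 genes, 1016 of them in RefSeq (3.7% of 27444), and 84 of the 1040 had another shared site elsewhere. Sites touching the gene body were found at 1492 genes (5.44%). The median of the lower fold was 9.4 over the 1040 genes with a shared promoter site and 9.915 over the 3456 genes with any shared site. Each gene was counted by its best site, which raises the value of genes with several sites. Over all 4324 pairs the median lower fold was 9.38.

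The promoters with the highest shared folds, by the lower of both lists, belonged to genes of varied roles. AT5G01080 led with 27.58 in L1 and 28.4 in L4. LSM8, for a subunit of the nuclear ring that binds spliceosomal U6 RNA, had 27.52 and 28.32 with summits 639 and 656 bp upstream of the 5′ end. AT2G37120 had 27.31 and 35.49, and PHO2 followed. SWEET11, a sucrose exporter gene of the leaf phloem, had 24.54 and 30.36 with summits 188 and 106 bp upstream. AT5G47250, AT2G11773 and ATRER1C1 came next. TRP1, for an enzyme of tryptophan synthesis, had 23.2 and 26.89 with summits 274 and 282 bp upstream, and AT1G49940 had 23.04 and 30.25. In all 10 the summits of L1 and L4 were 82 bp or less apart.

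A small number of genes had 2 overlapping pairs in the promoter window, either as separate places or as 1 wide peak with 2 partners. EMB1586, for an RNA helicase also known as ISE1, had a site with an L1 fold of 6.79 and an L4 fold of 9.17 and another with 10.44 and 9.17. AT1G22470 had 14.09 and 16.35 across its 5′ end and 12.5 and 12.45 further upstream. AT1G30750, AT2G25280 and AT3G42950 likewise had 2 places each. At PRP39-2, for a splicing factor, and at AT3G41762 a single L1 peak met 2 L4 peaks. These 7 genes are all that had more than 1 pair.

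Gene lists on the questions of the study were counted against those shares, with the percent of all 27444 genes as the background and with no test. The lists were chosen with earlier results of these data known, so they are not independent of the data. Genes of electron transport and the ATP synthase in plastids had the largest share of the 12 lists. Of 15 members, 10 had a shared site at any distance (66.7%, 41.7 to 84.8), beside 12.3% of all genes, and 5 had one in the promoter window (33.3%, 15.2 to 58.3), beside 3.7%. Counting each list alone, 5 of the 15 had a promoter peak in L1, beside 8.67% of all genes, and 6 in L4, beside 8.04%. All 5 of the L1 promoters were therefore shared. The median lower fold over the 10 genes was 10.98, beside 9.915 over all genes with a shared site. Among the other photosynthesis lists, promoter peaks in L1, in L4 and shared numbered 3, 4 and 3 for photosystem I. They numbered 3, 2 and 2 for photosystem II and 6, 6 and 3 for antenna genes. For the Calvin-Benson cycle they were 2, 4 and 1, and for chlorophyll synthesis 3, 4 and 2.

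The 5 promoters belonged to electron carriers, their reductase and the ATP synthase. The leaf ferredoxin gene FED A (AT1G60950) had an L1 fold of 16.28 and an L4 fold of 28.47, with summits 137 and 133 bp upstream of the 5′ end. FD1, another ferredoxin gene, had 10.96 and 16.25, and the plastocyanin gene PETE1 had 8.35 and 21.83. PDE334, for a subunit of the plastid ATP synthase, had 14.23 and 34.78, its summits lying 85 and 76 bp inside the gene. FNR1, for ferredoxin-NADP reductase, had 13.91 and 9.6, the only one of the 5 with the higher number in L1. Of the other 5 genes, FNR2 had a site inside the gene (12.53 and 11.64), as did FD3, for a ferredoxin (6.79 and 12.45). ATPC1 and ATPD, for the gamma and delta subunits of the ATP synthase, had downstream sites with 11 and 17.12 and with 15.14 and 22.34. PGR5, for a protein of cyclic electron flow, had 9.81 and 8.96 at 1519 bp downstream.

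Antenna genes, which encode the chlorophyll-binding proteins that collect light, had shared sites mostly inside the gene. Of 18 members, 8 had a shared site (44.4%, 24.6 to 66.3) and 3 had one in the promoter window (16.7%, 5.84 to 39.2). The promoters were those of LHCB5 (14.62 in L1, 9.72 in L4), LHCA3 (8.7 and 12.14) and CAB2 (6.13 and 6.44). The other 5, all inside the gene, were CAB3 (13.08 and 17.01), LHB1B1 (8.51 and 11.06), LHB1B2 (3.59 and 5.36), LHCB2.3 (8.88 and 12.45) and LHCA2 (6.79 and 17.16). In 4 of these 5 the summits lay between 523 and 765 bp from the 5′ end. CAB2 and CAB3, and LHB1B1 and LHB1B2, are neighbouring copies with near-identical coding sequence, so reads may be split or shared between them and their values are uncertain. The median lower fold of the 8 was 8.605, below the 9.915 of all genes with a shared site.

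The photosystem lists had lower shares at any distance than the antenna list, while photosystem I had a higher promoter share. The intervals overlapped. Of 12 photosystem I genes, 5 had a shared site (41.7%, 19.3 to 68.0) and 3 a promoter site (25%, 8.89 to 53.2). The promoters were PSAD-2, for the subunit that docks ferredoxin, with 6.79 in L1 and 22.57 in L4, PSAL with 6.79 and 9.34, and PSAN with 6.79 and 13.82. All 3 L1 peaks had the same pileup of 13 and stood below the L1 median fold of shared peaks. PSAH2 had 13.96 and 18.68 downstream, and PSAG had 11.22 and 9.45 across its 3′ end. Of 14 photosystem II genes, 4 had a shared site (28.6%, 11.7 to 54.6) and 2 a promoter site (14.3%, 4.01 to 39.9). All 4 encode proteins of the oxygen-evolving complex: PSBP-2 (16.19 and 24.62) and PSBP-1 (6.73 and 14.79) at the promoter, and PSBQ-2 (10.58 and 16.89) and PSBO1 (5.86 and 15) inside the gene.

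Carbon fixation and pigment genes stood closer to the background. Of 22 Calvin-Benson cycle genes, 4 had a shared site (18.2%, 7.31 to 38.5) and 1 a promoter site, GAPA, for a glyceraldehyde phosphate dehydrogenase subunit (8.91 in L1, 8.59 in L4). RBCS1A, for the Rubisco small subunit, had the highest folds of this list, 18.35 and 24.65, inside the gene. The aldolase gene FBA2 (7.23 and 7.93) and the isomerase gene TIM (8.88 and 11.68) were the other 2. Of 20 chlorophyll synthesis genes, 4 had a shared site (20%, 8.07 to 41.6) and 2 a promoter site (10%, 2.79 to 30.1). G4, the chlorophyll synthase gene, had 19.09 and 25.89 across its 5′ end, with summits 88 and 105 bp upstream. PORB, for the protochlorophyllide reductase, had 9.26 and 12.05, CHLI2, for magnesium chelatase, had 14.36 and 14.01 at 1781 bp upstream, and PCB2, for the vinyl reductase, had 7.31 and 12.45 across its 3′ end.

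The listed ribosomal protein and translation factor genes had shared sites at percentages below those of all genes, with intervals that included them. Ribosomal protein genes under other symbols were not counted, so the shares describe only the genes listed. Of 37 cytosolic ribosomal protein genes that carry such a symbol in RefSeq, 3 had a shared site (8.11%, 2.80 to 21.3, beside 12.3%) and 1 a promoter site (2.70%, 0.479 to 13.8, beside 3.7%). That gene was RPS5B, with 9.13 in L1 and 14.19 in L4 and summits 189 and 191 bp upstream of the 5′ end. BBC1, for a protein of the large subunit (9.4 and 10.12), and RPL23AB (7.1 and 15.62) had sites inside the gene. Of 30 initiation and elongation factor genes, 1 had a shared site, EIF2 ALPHA, with 12.59 and 23.33 at 1376 bp upstream, and 0 had a promoter site (interval up to 11.4%). In single lists 4 of the 30 had a promoter peak in L1, beside 8.67% of all genes, and 2 in L4, beside 8.04%. None of these was a shared promoter site. Among the 37 ribosomal protein genes, 2 had a promoter peak in L1 and 4 in L4.

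The remaining lists had no promoter site, beside 3.7% of all genes, with intervals that included that share. Their percentages with a shared site at any distance had intervals that included the 12.3% of all genes. In the NIK1 pathway list, 1 of 7 genes had a shared site (14.3%, 2.57 to 51.3), the LIMYB gene itself (AT5G05800). Its peaks inside the gene on chromosome 5 ran from 1744054 to 1744365 in L1, with a fold of 6.15, and from 1743616 to 1744289 in L4, with 13.31. They overlapped by 236 bp with summits 476 bp apart, far beyond the median of 23 bp, and the transgene carries the same coding sequence, so the copies cannot be told apart. Of 21 immunity genes, 2 had a shared site (9.52%, 2.65 to 28.9). WRKY33, for a defence transcription factor, had it inside the gene (12.67 and 10.36). MEKK1, for a kinase of pattern-triggered signalling, had it at 1192 bp upstream (10.96 and 12). Of 13 RNA silencing genes, 2 had a shared site (15.4%, 4.33 to 42.2). They were AGO4 (6.71 and 7.72) and AGO6 (20.36 and 12.45), both Argonautes of RNA-directed DNA methylation and both with the site inside the gene. Of 12 circadian clock genes 0 had a shared site (interval up to 24.2%).

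**Figure D5:**
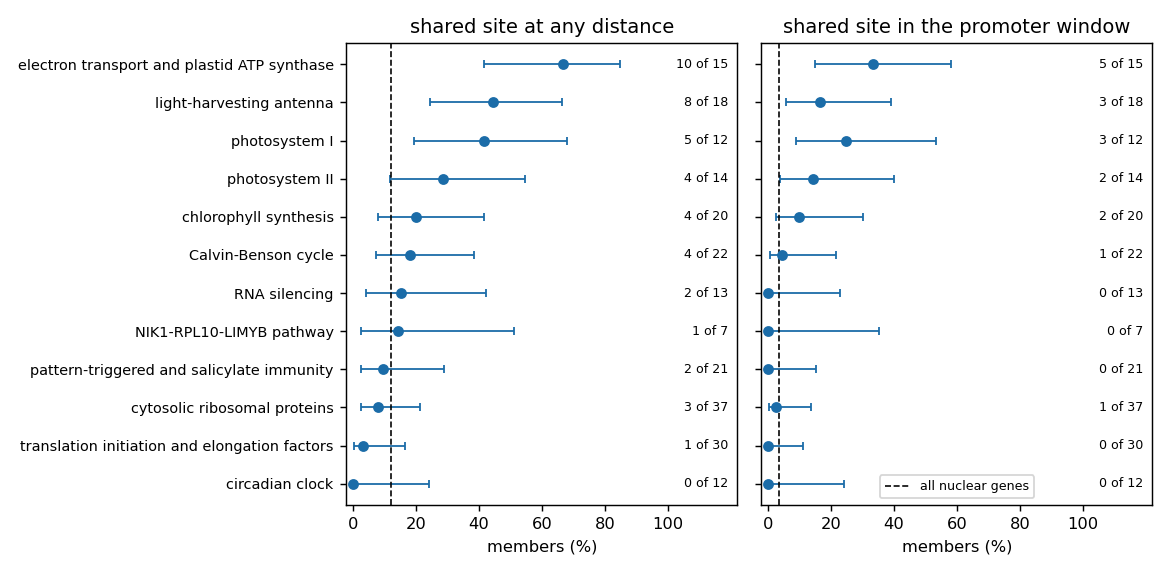
Percent of each gene list with a shared site at any distance (left) and in the promoter window (right), with 95% Wilson intervals and counts; the dashed line is the percent of all 27444 nuclear genes, 12.3 on the left and 3.7 on the right. Electron transport and ATP synthase genes lie farthest to the right (10 of 15 and 5 of 15), and ribosomal protein, translation factor, immunity and clock genes lie left of the line at any distance.

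Gene families defined by a symbol stem, with at least 20 genes each, had promoter shares from 0 to 10.3%, beside 3.7% of all genes, and shares at any distance from 0 to 37.9%, beside 12.3%. Calcium-dependent protein kinases (CPK) had the highest promoter share, 3 of 29 (10.3%), and 11 of 29 had a shared site at any distance (37.9%). The 3 were CPK20 (12.01 in L1, 18.68 in L4), CPK22 (10.44 and 14.79) and CPK2 (8.35 and 10.9). Cation exchangers (CHX) followed with 2 of 22, CHX27 (11.88 and 10.96) and CHX3 (8.45 and 8.97). The stem RPS also had 2 of 22, but it mixes RPS5B with RPS6 (AT5G46470; 8.88 and 25.69), a disease resistance gene, so it is not a family. Aux/IAA auxin repressors had 2 of 24, IAA28 (8.88 and 12.32) and IAA34 (7.83 and 10.9), and Pumilio RNA-binding proteins had 2 of 25, PUM13 (9.65 and 15.48) and PUM24 (8.25 and 15.33). Of the 57 stems, 21 had 0 shared promoter sites, and the RABA (21 genes) and TPS (20 genes) stems had none at any distance. These shares rest on 2 or 3 genes each and were ranked after counting.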

How the data were processed

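ChIP-seq peak lists of YFP-LIMYB seedlings were analysed, 1 list for L1 (2 samples), 1 for L3 (4) and 1 for L4 (4). The submitters' processing notes name MACS2. Not given in the sources used here were its settings, the aligner, the control track, the genome build and any pooling of replicates. The authors deposited a pileup, which is the signal at the summit, a fold enrichment, which is a ratio whose denominator the file headers do not state, and q-values as −log10. Depth per sample is unknown. Gene assignment and position class are the authors' own.

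Entries were reduced to 1 per peak position on chromosomes 1 to 5. L1 and L4 peaks were paired where they overlapped by at least 1 bp; L3 had no nuclear peak. Distances run from summit to gene end. Shares have 95% Wilson intervals. No test was made, because the members were chosen by the overlap and each line has 1 list. Symbols came from the RefSeq table of TAIR10.1, which held 9825 of 10010 assigned genes (98.2%); no coordinates were taken from it. Members, gene lists and rules were chosen with earlier results of these data known. Alternatives changed the overlap, the peak threshold, the promoter window and the distance to genes. Pairing was checked on simulated data. Python 3.11.15, numpy 2.4.6, pandas 2.3.3, scipy 1.17.1 and matplotlib 3.10.9 were used.

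Genes were named by rule: the 10 sites with the highest lower fold of both lists, the 3 highest per position class, the 5 genes with most sites (with ties), the 5 widest sites, the 3 smallest overlaps and gaps, up to 4 promoter genes per list by lower fold, the 10 highest promoters, the LIMYB locus, the 5 highest and 5 lowest symbol stems, and the 3 highest pairs assigned to different genes. The 5th promoter of electron transport, list members with sites elsewhere and genes with 2 promoter pairs were named after their values were seen. Because 21 stems tied at 0, the lowest are given as a count.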

Additional observations from a re-analysis of the deposited data

Results flagged for a closer look

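Both lists also held peaks on plastid and mitochondrial DNA, outside the nuclear sites described above. No control sample gives a level to set them against. L1 had 73 plastid peaks, L3 had 12 and L4 had 93. L1 had 82 mitochondrial peaks and L4 had 100. Of the L1 peaks, 67 plastid and 64 mitochondrial ones overlapped an L4 peak. These are larger shares than the 44.97% of nuclear L1 peaks, and that difference was not tested.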

How the results depend on the processing

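No paired analysis was possible because a line is represented by 1 peak list with no replicate columns, and for the same reason no replicate could be left out. Of the main results recomputed under each alternative, 29 values stayed close (counts within 1.5 times, shares within the 95% interval) and 13 moved. In the upper 50% of each list by fold, 1926 L1 peaks, 1926 L4 peaks and 1926 joined sites were shared, 40.8% of the L1 peaks and 40.9% of the L4 peaks lay upstream, and 463 genes had a shared promoter site. With −log10 q of at least 10, the counts were 2262 L1 peaks, 2259 L4 peaks, 2258 sites and 515 genes. Both settings test fewer peaks and cut both lists before pairing, so a peak whose partner fell below the cut counted as not shared. Counted so, 40.1% of 4803 L1 and 43.0% of 4477 L4 peaks were shared in the upper 50%. By q, 44.6% of 5069 L1 and 44.9% of 5027 L4 peaks were. Against the whole other list, groups 4 and 5 of 5 by fold had 50.3% and 73.6% shared in L1. In L4 they had 54.6% and 65.6%. Counting the assigned gene at any distance gave 3378 genes. Among shared peaks within 10000 bp of the assigned gene, 40.7% in L1 and 40.7% in L4 were upstream of it. Of the list counts, 87 stayed within 1.5 times and 33 moved. Photosystem I fell to 0 promoters with summits within 50 bp, in the upper 50% by fold and by q. Antenna genes had 0 in the upper 50% and 6 with the gene body, and electron transport had 3 in the upper 50%. Depth is unknown, and without input or replicates neither background nor error can be set against these counts.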
